A study of Mus musculus with 6 samples.

Results

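General splicing factors are the proteins that find splice sites or tune their use in most transcripts, and 35 genes that encode them were followed here in mouse embryonic stem cells (mESCs) with and without Setd2. The genes were listed by name and role, but with earlier results of these data known. They encode SR proteins, hnRNP proteins, core splicing factors, and regulators whose levels set splicing patterns of particular tissues. The platform annotation named 34 of them as the single gene of a probe set, at 124 of the 45037 probe sets in the table, while Srsf7 was named by none. Another 3 probe sets, which named Hnrnpa1 together with pseudogenes, were left out. Of the 124 probe sets, 117 were bright enough to be tested, among 27022 in all, and 7 were too dim.

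The 6 arrays were hybridised with total RNA from Setd2 knockout mESCs (3 arrays) and wild type mESCs (3 arrays), which the labels call biological repeats numbered 1 to 3. Both genotypes were of the strain 129SV/C57BL/6, had no specific treatment and were grown on feeder cells, most of which the protocol aimed to remove before harvest. Nothing in the labels states which part of Setd2 was deleted, or whether the repeats came from separate cell lines, so a p-value here measures the spread between these arrays. The design looked for genes needed for primitive endoderm differentiation.

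Setd2 trimethylates histone H3 at lysine 36 (H3K36me3) behind elongating RNA polymerase II, over the gene bodies where most splicing takes place during transcription. In human cells the H3K36me3 reader MRG15 has been described as bringing the splicing repressor PTBP1 to chromatin, and in mouse cells the reader Psip1 as binding Srsf1. SR proteins mostly bind exons and promote their inclusion, hnRNP proteins often oppose them, and Mbnl, Rbfox and Qk proteins move splicing from patterns of pluripotent cells towards those of differentiated cells. The arrays measured the amount of RNA at each probe set, not splicing itself.

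Signals are given as log2 of the MAS5 signal, the Affymetrix summary of the probes of a probe set, and a difference is always knockout minus wild type on that log2 scale. The single Setd2 probe set read 9.37, 9.50 and 9.60 in knockout cells, against 10.31, 10.30 and 10.31 in wild type cells. It fell by 0.82 ± 0.12 (SE) in knockout cells (limma adjusted p = 0.0272), a call that was lost without the intensity trend and without any single array other than knockout 1 (adjusted p of 0.0704 to 0.214). All 10 mESC markers on the list, among them Pou5f1, Nanog and Sox2, read at least 10.45 on every array, and 1 of them, Zfp42, fell, by 1.99. Zfp42 lies on chromosome 8, where the median difference of 1242 tested probe sets was -0.34, against 0.02 elsewhere. Feeder fibroblast markers were also present: the summed linear signal of 23 tested markers of 27 listed was 20706 to 33032 on the knockout arrays and 21226 to 35669 on the wild type arrays. None of them was at 0, the lowest reading 4.93, and 0 passed the threshold between genotypes without the replicate block described next. With it 3 of these markers passed, where 7.88% of all tested probe sets passed. Fn1 (0.43, limma adjusted p = 0.00327) and Pdgfrb (0.81, 0.0430) were higher and Sparc (-0.49, 0.00158) was lower. Within each genotype, Fn1 and Sparc read highest on the array numbered 1. The linear sum weighs bright markers such as these most, so it does not measure feeder content alone. In these bulk samples, fewer cells of a type and less RNA per cell cannot be told apart. The arrays numbered 1 stood apart in both genotypes on the first principal component (38.0% of variance), and the genotypes on the second (28.9%). Replicate number and genotype could be fitted together, so a fit with the number as a block stands beside the fit without it. That arrays numbered 2, or those numbered 3, form pairs was not shown.

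Without the replicate block, no splicing factor gene on the list passed the threshold between Setd2 knockout and wild type cells, while 3 probe sets passed with it. Of the 117 tested probe sets, 0 were higher and 0 lower at a limma adjusted p under 0.05, where 0.648% of all tested probe sets passed (0.274% higher and 0.374% lower). The lowest adjusted p among them was 0.284. An unadjusted p under 0.05 was reached by 5 member probe sets (4.27%), against 11.7% of all tested. The 3 knockout values lay wholly above or below the 3 wild type values at 11 of the 117 (6 higher and 5 lower, 9.40%), against 18.1% of all. The median difference was -0.01 over the member probe sets and 0.01 over all tested. With the replicate block, 3 member probe sets passed, 2 higher and 1 lower, where 7.88% of all tested probe sets passed (3.49% higher and 4.39% lower). They belonged to Qk, Hnrnpa2b1 and Srsf11, each at a single probe set out of several.

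**Figure D1:**
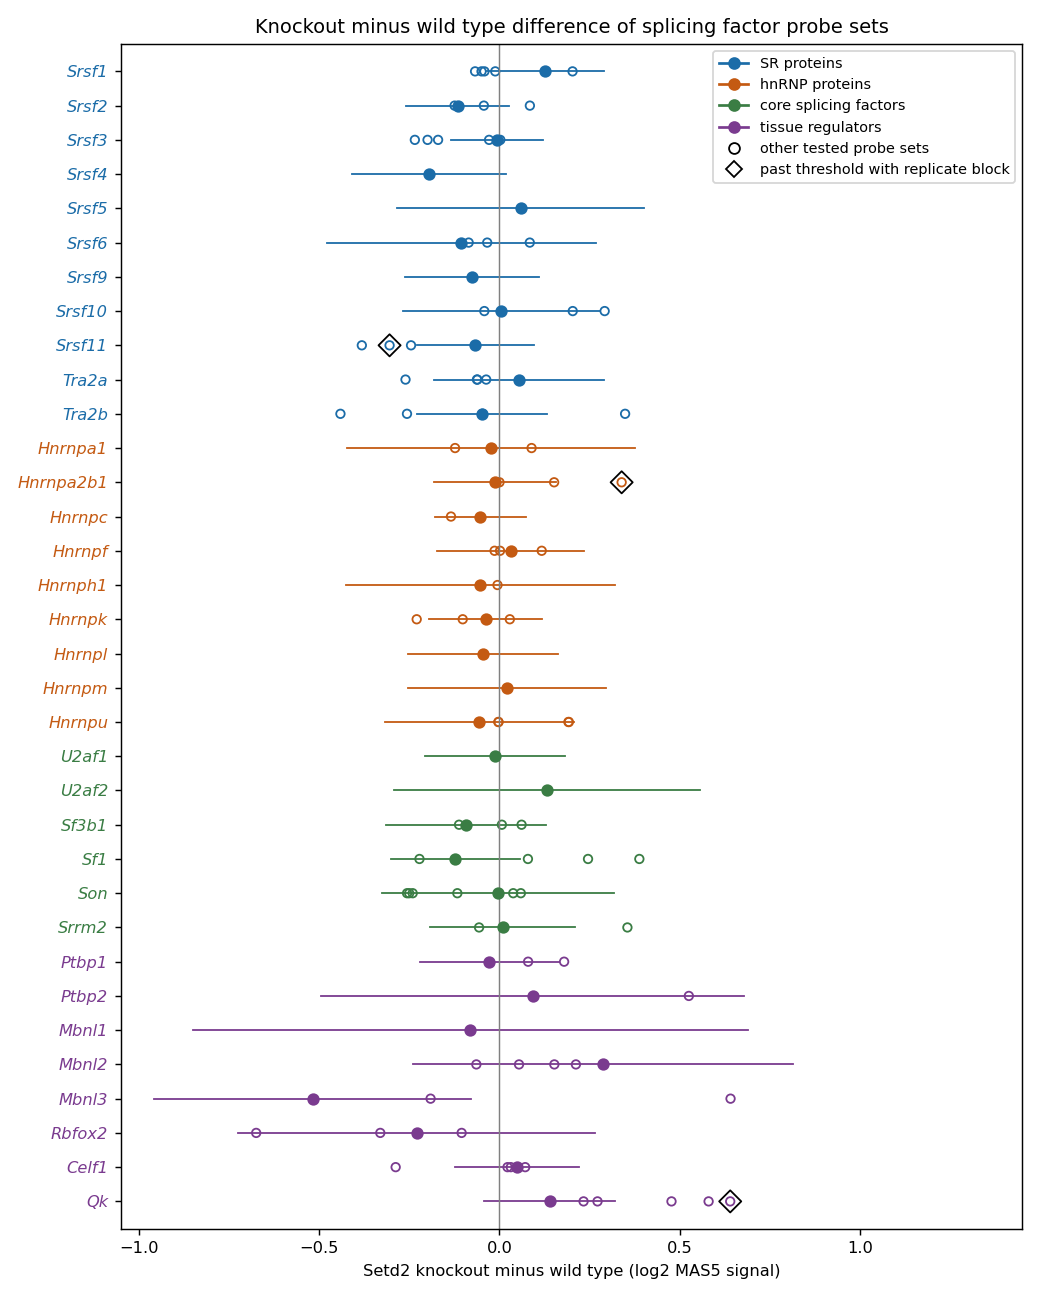
Knockout minus wild type difference in log2 MAS5 signal (horizontal axis) for the 34 member genes (rows, coloured by role). The filled point is the brightest tested probe set of a gene with its 95% interval, and open circles are its other tested probe sets. Diamonds mark the 3 probe sets past the threshold with the replicate block, and the 6 points beyond 0.5 either way all belong to tissue regulators.

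The intervals bounded most differences in MAS5 signal closely. They apply to the signal of a probe set, and whether the brightest signals understate a change in RNA was not tested. The 95% interval of the difference lay inside a 2-fold change either way for 107 of the 117 member probe sets (91.5%), against 73.5% of all tested. It lay inside a 1.5-fold change for 75 of them (64.1%), against 35.1% of all, and with the replicate block for 90 (76.9%), against 49.5%. Member probe sets were bright, with a median mean signal of 11.18 where the median over all tested was 7.998. Their median SE was 0.15, against 0.22 over all tested. Of the 10 intervals that reached past a 2-fold change, 9 belonged to probe sets with a mean signal below 8. These 10 were probe sets of Tra2a, Tra2b, Ptbp2, Mbnl2, Mbnl3, Rbfox2 and Qk.

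**Figure D2:**
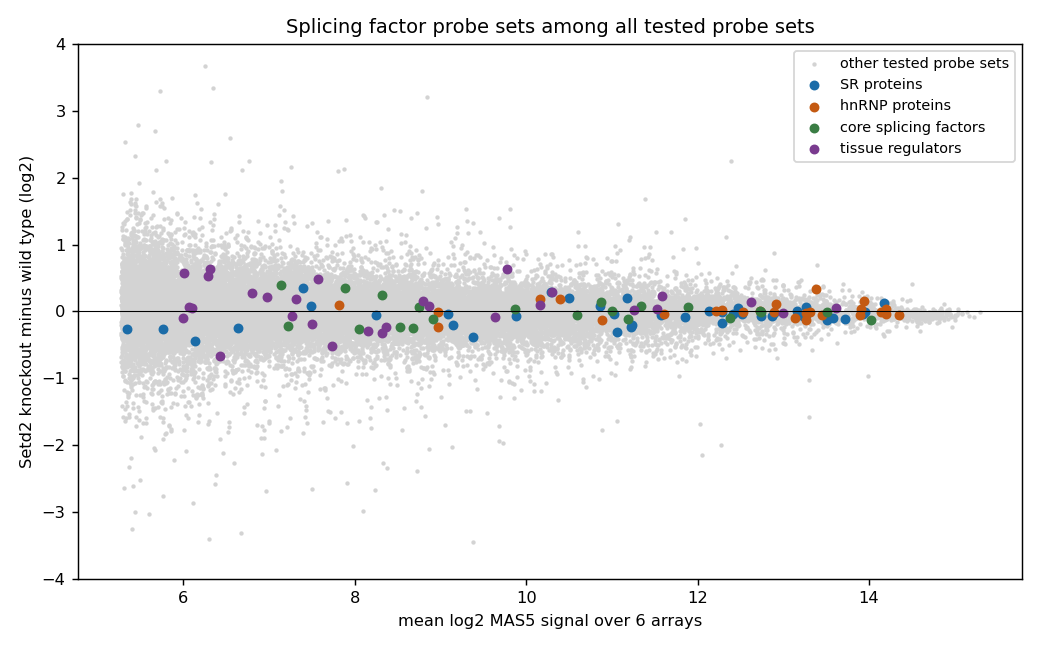
Mean log2 MAS5 signal over the 6 arrays (horizontal axis) against the knockout minus wild type difference (vertical axis, log2) for all 27022 tested probe sets, with member probe sets coloured by role. The vertical axis ends at 4 either way, which leaves 12 probe sets outside the plot. The members lie between -0.67 and 0.64.

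SR proteins carry RNA recognition motifs and a domain rich in arginine and serine. Their genes gave 41 tested probe sets of 11 genes, of which 0 passed without the block. The median difference was -0.05, the range -0.44 to 0.35, and 30 of the 41 lay below 0 (73.2%, against 48.6% of all tested). Many of the 41 share a gene, and at the brightest probe set of each gene 7 of the 11 lay below 0. Over all tested probe sets, groups did not overlap at 18.1%, 9.16% higher and 8.99% lower. Among the 41 they did not overlap at 5 (12.2%), 1 higher and 4 lower. These were Srsf1 (1452430_s_at) on the higher side, and Srsf2 (1427504_s_at), Srsf3 (1416151_at), Srsf4 (1448778_at) and Srsf11 (1430077_at) on the lower.

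Srsf1, the founding SR protein, differed at its brightest probe set by 0.13 (95% interval -0.03 to 0.29). Srsf2, a protein of nuclear speckles, read 13.61, 13.64 and 13.73 in knockout cells, against 13.79, 13.81 and 13.73 in wild type cells, a difference of -0.12 (-0.26 to 0.03). Its groups barely parted, since knockout 3 and wild type 3 read alike. Srsf3, a small SR protein also active in RNA export, differed by -0.01 (-0.13 to 0.12) at its brightest probe set. At 1416151_at it read 10.96, 11.21 and 11.13 in knockout cells, against 11.22, 11.46 and 11.32 in wild type cells. That difference of -0.23 ± 0.11 (SE) stayed short of the threshold with the block too (limma adjusted p = 0.481, and 0.0805 with the block).

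Srsf4 had a single probe set, at 11.10, 11.18 and 11.14 in knockout cells and 11.38, 11.37 and 11.26 in wild type cells. All knockout arrays lay below all wild type arrays, by 0.20 on average (-0.41 to 0.02; limma adjusted p = 0.469, and 0.149 with the block). Srsf5 and Srsf6, both SR proteins with a pair of RNA recognition motifs, differed by 0.06 (-0.29 to 0.40) and -0.11 (-0.48 to 0.27). Srsf9, a close relative of Srsf1, differed by -0.08 (-0.26 to 0.11). The SR-like proteins Tra2a and Tra2b bind purine-rich exonic enhancers. Tra2a differed by 0.06 (-0.18 to 0.29) and Tra2b by -0.05 (-0.23 to 0.13) at the brightest probe sets. Dimmer Tra2b probe sets, 3 in all, at mean signals of 5.76 to 7.39, differed by -0.26, 0.35 and -0.44, with intervals reaching past a 2-fold change.

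Srsf10, which turns into a general splicing repressor when it loses its phosphates, differed by 0.01 (-0.27 to 0.28) at its brightest probe set. Its other probe sets differed by -0.04, 0.20 and 0.29. The last of these (1449121_at) read 10.07, 10.71 and 10.53 in knockout cells, against 9.97, 10.21 and 10.26 in wild type cells. It passed when both arrays numbered 1 were left out (0.39, limma adjusted p = 0.0422), but neither with all arrays (0.601) nor with the block (0.103).

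Srsf11, an SR-related protein, was lower at all 4 of its tested probe sets, though only 1427269_at passed, and only with the block. That probe set read 10.70, 11.07 and 10.95 in knockout cells, against 11.04, 11.26 and 11.34 in wild type cells. Knockout 2 lay above wild type 1, so the groups overlapped, but within each replicate number the knockout array was lower, by 0.34, 0.19 and 0.39. The difference was -0.30 ± 0.13 (SE) without the block (limma adjusted p = 0.426), and the SE was 0.08 with it (adjusted p = 0.0392). The brightest Srsf11 probe set (1452371_at) differed by -0.07 (-0.23 to 0.10), and the others by -0.38 and -0.25.

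hnRNP proteins coat nascent transcripts and often block exon inclusion. Their 26 tested probe sets of 9 genes had a median difference of 0.00 and a range of -0.23 to 0.34, the narrowest of the 4 roles. Groups did not overlap at 0 of the 26, against 18.1% of all tested. All 26 intervals lay inside a 2-fold change and 23 inside a 1.5-fold change. At the brightest probe set of each gene the differences ran from -0.06 (Hnrnpu) to 0.03 (Hnrnpf), and the 9 intervals from -0.42 to 0.38. Hnrnpa1, which opposes Srsf1 in the choice of splice sites, differed by -0.02 (-0.42 to 0.38). Hnrnpc, a binder of uridine tracts, read 14.33, 14.26 and 14.38 in knockout cells, against 14.39, 14.35 and 14.37 in wild type cells, a difference of -0.05 (-0.18 to 0.07). Hnrnpf and Hnrnph1 bind runs of guanine and differed by 0.03 (-0.17 to 0.23) and -0.05 (-0.42 to 0.32). Hnrnpk, which binds cytosine-rich RNA, differed by -0.04 (-0.20 to 0.12). Hnrnpl, a binder of CA repeats, differed by -0.04 (-0.25 to 0.16), Hnrnpm by 0.02 (-0.26 to 0.29), and Hnrnpu, a nuclear scaffold protein, by -0.06 (-0.32 to 0.21). A Hnrnpl probe set too dim to be tested (1445594_at) read 5.02, 6.02 and 5.46 in knockout cells, against 3.85, 4.38 and 4.66 in wild type cells, with no overlap and no test.

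Hnrnpa2b1, whose protein binds RNA in the nucleus and sorts RNAs for transport, was the member of this role with a probe set past the threshold under the block. At 1434047_x_at it read 13.18, 13.71 and 13.75 in knockout cells, against 12.83, 13.37 and 13.43 in wild type cells. The arrays numbered 1 were lower in both genotypes, and within each number the knockout array was higher by almost the same amount, 0.35, 0.34 and 0.32. The difference was 0.34 ± 0.19 (SE; limma adjusted p = 0.565), and the SE with the block was 0.06 (adjusted p = 0.00440). It also passed without both arrays numbered 1 (0.33; adjusted p = 0.00883). The other 3 Hnrnpa2b1 probe sets, including the brightest, differed by -0.01, 0.15 and 0.00, with limma adjusted p of 0.111 or more with the block. The suffix _x_at marks probe sets in which some probes also match other sequences.

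**Figure D3:**
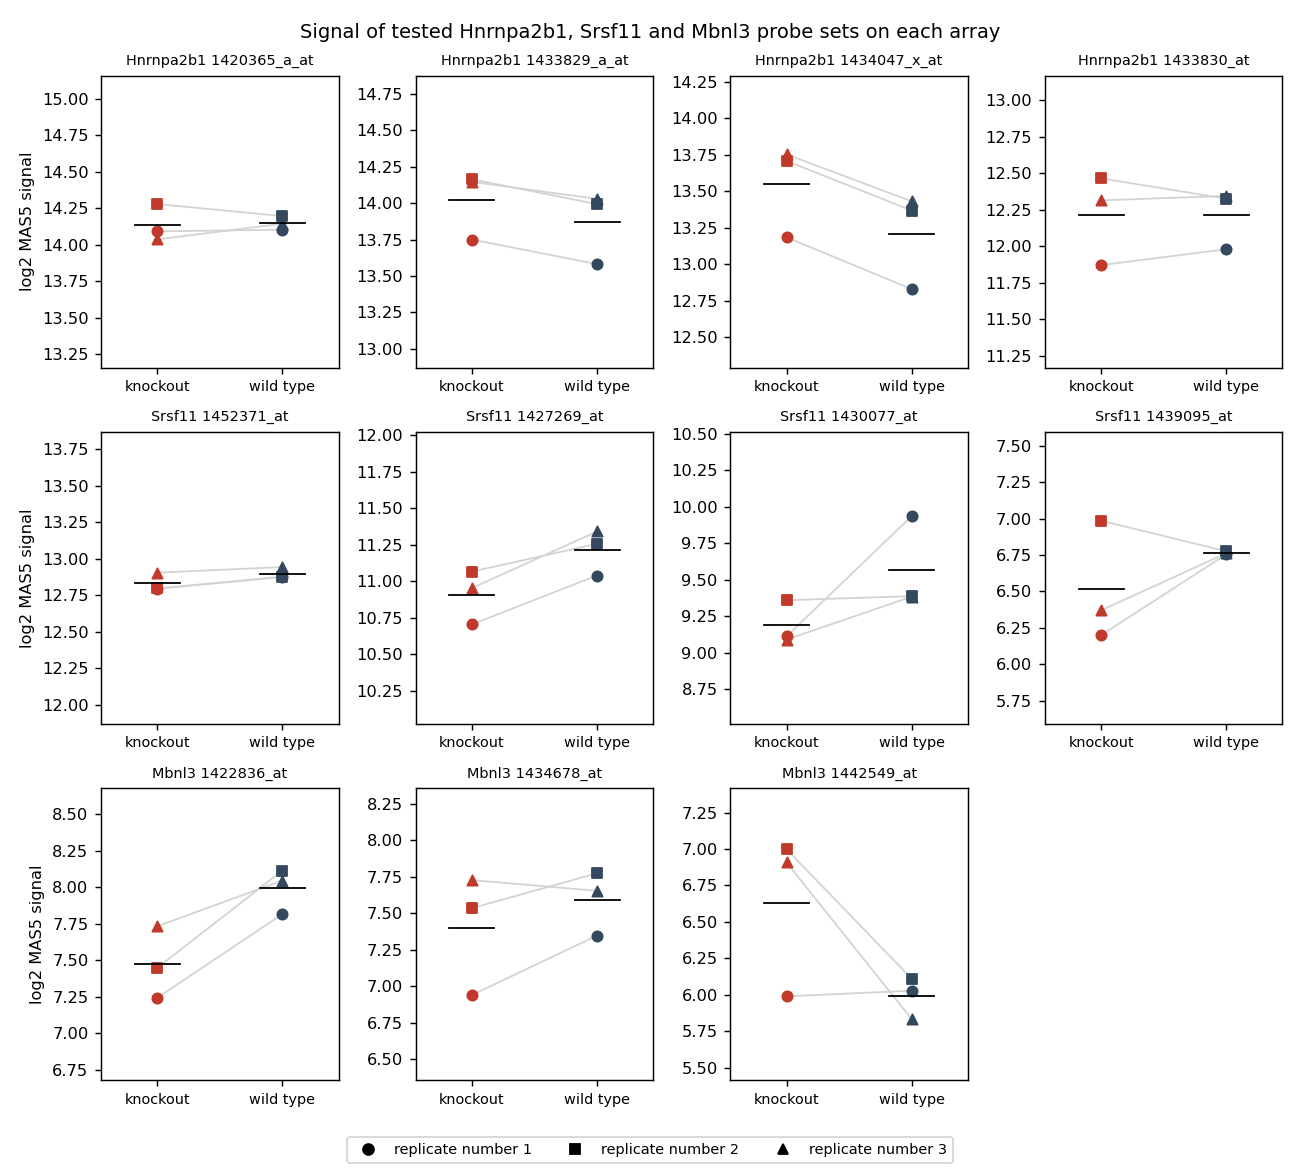
Log2 MAS5 signal (vertical axis, each panel spanning 2 log2 units) of the tested probe sets of Hnrnpa2b1, Srsf11 and Mbnl3, with the 3 knockout arrays left of the 3 wild type arrays. Symbols give the replicate number, grey lines join arrays of the same number, and bars are group means. The lines of Hnrnpa2b1 1434047_x_at run almost parallel, while those of Mbnl3 1422836_at and 1442549_at slope in opposite directions except for number 1 of the second.

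Core factors recognise the splice sites themselves or, as Son and Srrm2, act as scaffolds of nuclear speckles. None of their 21 tested probe sets of 6 genes passed either without or with the block, and all 21 intervals lay inside a 2-fold change. The median difference was 0.00 and the range -0.26 to 0.39. Groups did not overlap at 2 of the 21 (9.52%), against 18.1% of all tested. U2af2 binds the polypyrimidine tract and U2af1 the AG at the end of the intron. U2af1 read 13.40, 13.58 and 13.52 in knockout cells, against 13.37, 13.59 and 13.58 in wild type cells, a difference of -0.01 (-0.21 to 0.18). The groups overlapped fully. U2af2 differed by 0.13 (-0.29 to 0.56). Sf1, the branch point binding protein, read 14.05, 13.82 and 14.01 at its brightest probe set in knockout cells, against 14.00, 14.10 and 14.15 in wild type cells. That was a difference of -0.12 (-0.30 to 0.06; limma adjusted p = 0.625, and 0.318 with the block), with knockout 1 and 3 among the wild type values. Sf3b1, the U2 snRNP protein that holds the branch point, differed by -0.09 (-0.31 to 0.13). The speckle scaffold proteins Son and Srrm2 differed by 0.00 (-0.33 to 0.32) and 0.01 (-0.19 to 0.21). Dimmer probe sets of Sf1 (1422321_a_at) and Srrm2 (1437638_at) were higher on every knockout array, by 0.39 and 0.35, at limma adjusted p of 0.524 and 0.487 (0.247 and 0.223 with the block).

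Tissue regulators varied most of the 4 roles, with a median absolute difference of 0.19, near the 0.18 over all tested. The 6 member probe sets that differed by over 0.5 either way all lay among their 29 tested probe sets. Of all 27022 tested probe sets, 3744 differed by over 0.5. Their median mean signal was 8.16 and their median SE 0.23, and 23 of the 29 intervals lay inside a 2-fold change. The median difference was 0.07, and 0 probe sets passed without the block. Groups did not overlap at 4 of the 29 (13.8%), against 18.1% of all tested. Ptbp1, the polypyrimidine tract protein that represses neuronal exons, differed by -0.03 (-0.22 to 0.17). Its neuronal paralog Ptbp2 differed by 0.09 (-0.49 to 0.68), and by 0.53 at a dimmer probe set (-0.17 to 1.22). Celf1, a binder of GU-rich RNA that acts on splicing and mRNA decay, differed by 0.05 (-0.12 to 0.22). Rbfox2, an RNA binding regulator with a role in epithelial and neural splicing, was lower at all 4 tested probe sets, by 0.23, 0.33, 0.67 and 0.10. The limma adjusted p of these ran from 0.469 to 0.930, and from 0.203 to 0.881 with the block.

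Qk, a STAR family RNA binding protein known from myelination and from the formation of circular RNAs, was higher at all 6 of its tested probe sets, by 0.14 to 0.64. At 1417073_a_at it read 9.64, 10.22 and 10.42 in knockout cells, against 9.26, 9.44 and 9.66 in wild type cells. The lowest knockout value lay just below the highest wild type value, and within each number the knockout array was higher, by 0.38, 0.78 and 0.76. The difference of 0.64 ± 0.21 (SE) was a 1.56-fold higher signal (limma adjusted p = 0.284, and 0.00566 with the block). It passed without knockout replicate 1 (0.87; limma adjusted p = 0.0390) and without both arrays numbered 1 (0.77; 0.00436).

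The other Qk probe sets stayed short of the threshold with and without the block. The brightest (1451179_a_at) read 12.62, 12.78 and 12.68 in knockout cells, against 12.49, 12.55 and 12.61 in wild type cells, a difference of 0.14 (-0.04 to 0.32). The next (1429318_a_at) read 11.61, 11.77 and 11.73 in knockout cells, against 11.46, 11.43 and 11.52 in wild type cells, a difference of 0.23 (0.03 to 0.44; limma adjusted p = 0.366, and 0.0814 with the block). Probe set 1429735_at read 7.62, 7.85 and 7.97 in knockout cells, against 7.09, 7.50 and 7.41 in wild type cells, a difference of 0.48 (0.03 to 0.92; 0.387, and 0.106 with the block). In these 3 the groups did not overlap. The remaining probe sets differed by 0.27 and 0.58, with overlapping groups. Set against the brightest on the same array, 1417073_a_at was further up by 0.50 ± 0.22 (SE), which did not pass (limma adjusted p = 0.592).

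**Figure D4:**
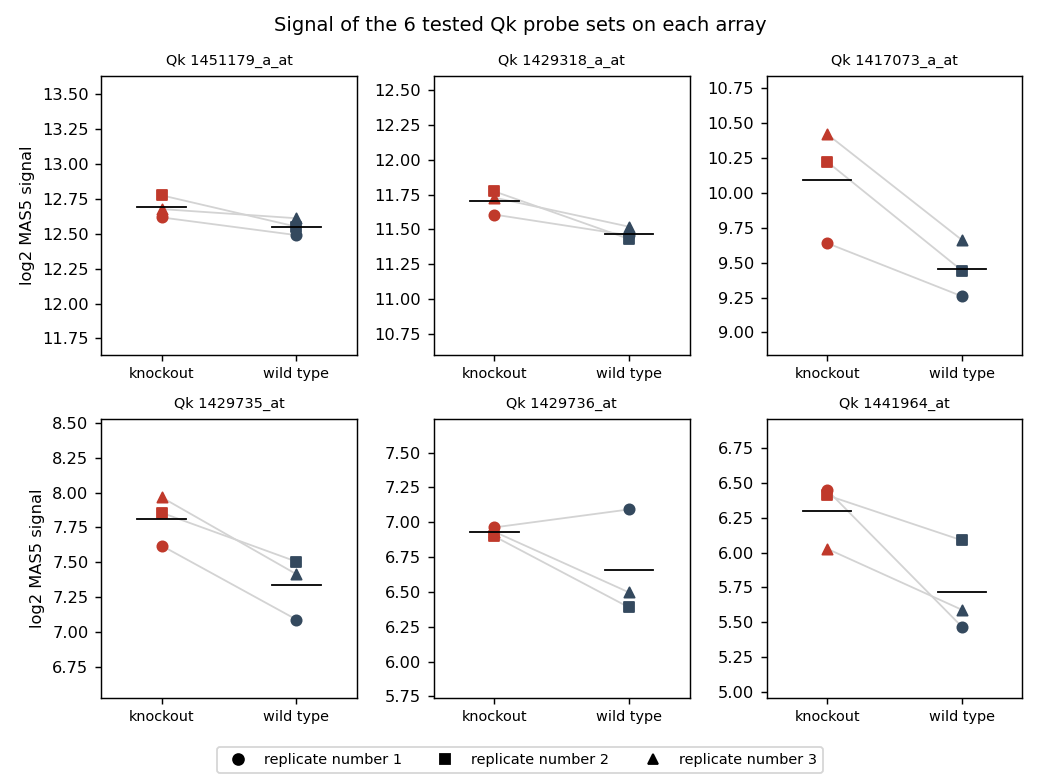
Log2 MAS5 signal (vertical axis, each panel spanning 2 log2 units) of the 6 tested Qk probe sets, with the 3 knockout arrays left of the 3 wild type arrays. Symbols give the replicate number, grey lines join arrays of the same number, and bars are group means. The knockout mean is the higher in every panel, by 0.14 to 0.64.

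The Mbnl proteins bind GC-containing RNA motifs and favour splicing patterns of differentiated cells. Mbnl1 read 8.84, 10.11 and 9.83 in knockout cells, against 9.18, 9.92 and 9.91 in wild type cells. Both arrays numbered 1 lay below the other 4, while the genotypes differed by -0.08 (-0.85 to 0.69). Mbnl2 went the other way with array number: it read 10.94, 10.09 and 10.32 in knockout cells, against 10.44, 9.93 and 10.11 in wild type cells. Its difference was 0.29 (-0.24 to 0.81; limma adjusted p = 0.711, and 0.101 with the block). The other 4 tested Mbnl2 probe sets differed by 0.15, -0.06, 0.21 and 0.05.

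Mbnl3, the X-linked member of the family, was the gene whose probe sets parted furthest. At 1422836_at it read 7.24, 7.45 and 7.73 in knockout cells, against 7.82, 8.12 and 8.05 in wild type cells, so that every knockout array was lower. That difference was -0.52 ± 0.19 (SE; limma adjusted p = 0.337, and 0.0773 with the block). At 1442549_at it read 5.99, 6.998 and 6.91 in knockout cells, against 6.03, 6.11 and 5.83 in wild type cells. Knockout 2 and 3 stood above every wild type array there and knockout 1 lay among them, for a difference of 0.64 ± 0.32 (SE; limma adjusted p = 0.493). The remaining probe set (1434678_at) differed by -0.19. The log2 ratio of 1442549_at over 1422836_at was higher in knockout cells by 1.16 (95% interval 0.60 to 1.72), at an unadjusted p of 0.00203 in the fit over all such pairs. After adjustment it did not pass (limma adjusted p = 0.241, and 0.342 with the block).

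The same ratio was fitted for every gene of the table with at least 2 tested probe sets, each probe set against the brightest of its gene. Of 83 such pairs in 26 member genes, 0 passed the threshold, with or without the block, where 0.108% of 10171 pairs passed without the block and 0% with it. An unadjusted p under 0.05 was reached by 2 member pairs, both of Mbnl3, against 8.75% of all pairs. In 20 of the 26 genes the tested probe sets had differences of both signs, and in 6 (Hnrnpc, Hnrnph1, Ptbp2, Qk, Rbfox2 and Srsf11) all had the same sign. A ratio of this kind tests unequal change between probe sets and does not say which of them follows the gene. Which transcripts each probe set covers was not analysed here.

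Array number also parted the members. Both arrays numbered 1 lay below the other 4 arrays at 38 of the 117 member probe sets (32.5%), against 16.2% of all tested, and above them at 7 (5.98%), against 19.8%. The low probe sets came from 24 genes of all 4 roles, and the share was 42.3% among hnRNP proteins and 20.7% among tissue regulators. The mean over the 34 genes, each at its brightest probe set, was 12.39, 12.62 and 12.59 on knockout arrays 1 to 3, against 12.47, 12.63 and 12.59 on wild type arrays 1 to 3. Arrays numbered 1 were thus the lowest in both genotypes. The feeder marker sums given above were also lowest on these arrays, at 20706 in knockout and 21226 in wild type cells, and at 28699 or more on the other 4. The mean log2 signal of these markers was lowest there too, at 7.90 and 8.09, and at 8.65 or more on the other 4. Not every marker followed this. Fn1, Sparc and Twist1 read highest on the arrays numbered 1 within each genotype, and Thy1 and Pdgfrb did so in knockout cells only. Fn1 and Sparc, at 12.99 and 11.84 on knockout 1, weigh heavily in the linear sum, which is thus not a measure of feeder content alone. The part of the feeder cells in the level of any member was not tested. The median knockout minus wild type difference of the members was -0.01 over all arrays and 0.04 without both arrays numbered 1.

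**Figure D5:**
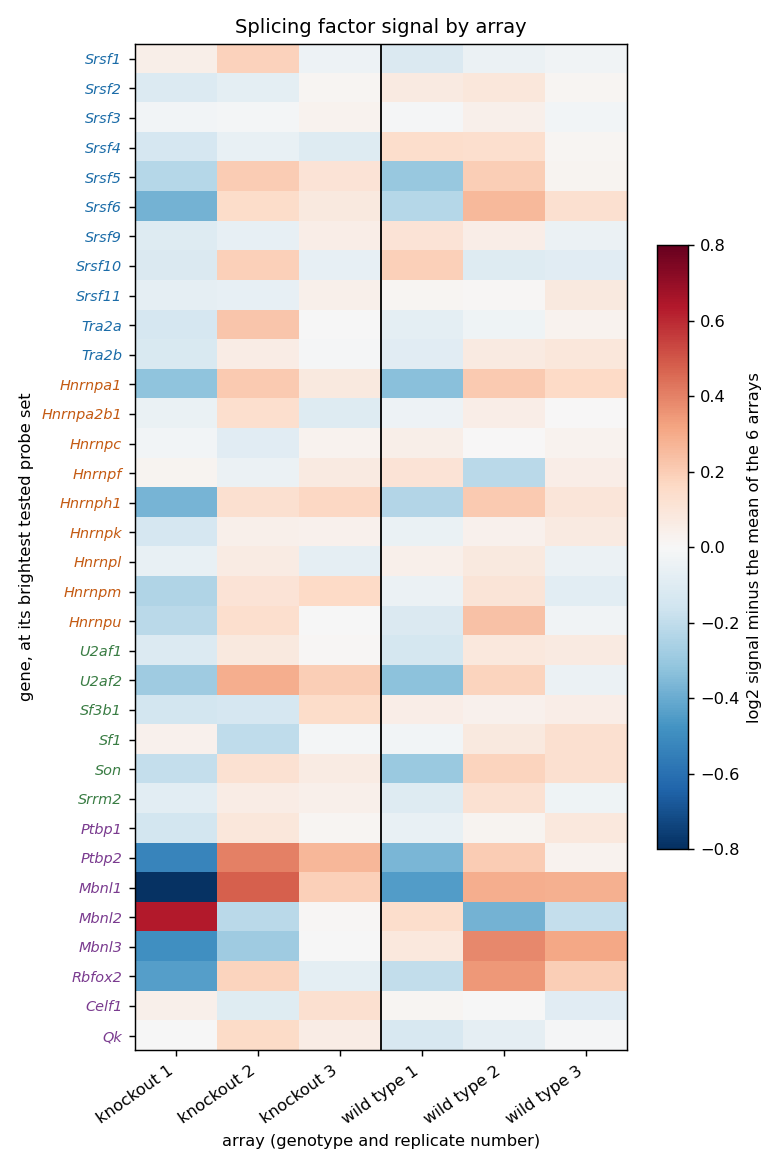
Log2 MAS5 signal minus the mean of the 6 arrays (colour) for the 34 member genes at their brightest tested probe set (rows), with the 3 knockout arrays left of the 3 wild type arrays. On knockout array 1, 29 of the 34 genes lie below their mean (blue), and on wild type array 1, 22 of them, while Mbnl2 is well above it on knockout array 1.

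The rest of the splicing machinery was followed through 114 other listed genes, 103 of them with a tested probe set. Of their 288 tested probe sets 1 rose and 0 fell, where 0.648% of all tested probe sets passed, and with the block 26 passed, 12 higher and 14 lower, from 19 genes. That was 9.03% of their probe sets, where 7.88% of all tested passed with the block (3.49% higher and 4.39% lower). Their median difference was 0.00. The one that rose was Esrp1, which encodes an epithelial splicing regulator: it read 9.86, 9.74 and 9.87 in knockout cells, against 8.52, 8.58 and 8.60 in wild type cells (2.39-fold higher; limma adjusted p = 0.00602). Its call was lost without knockout replicate 3 (0.0544) or wild type replicate 3 (0.0592). Among 7 SR protein kinase genes 0 of 19 probe sets passed without the block and 1 with it, of Srpk1, at -0.34. Among 44 genes of snRNP and spliceosome proteins 0 of 112 passed without the block, and 13 passed with it, 7 higher and 6 lower (11.6%, against 7.88% of all tested). Among them, chosen after their values were seen, were the helicase genes Snrnp200 (0.30) and Dhx16 (0.39) on the higher side and Sf3b3 (-0.33 and -0.55), a partner of Sf3b1, on the lower.

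Among 52 other regulators of alternative splicing, 12 of 157 probe sets passed with the block, 5 higher and 7 lower, a share of 7.64% that is near the 7.88% of all tested. The genes named here were chosen in the same way. Khdrbs1 (Sam68), an RNA binding regulator, read 9.68, 10.37 and 10.66 at 1438462_x_at in knockout cells, against 12.43, 11.70 and 11.52 in wild type cells (-1.64; limma adjusted p = 0.0581, and 0.00375 with the block). Its other 5 tested probe sets differed by -0.16 to 0.24, and its ratio to the brightest did not pass (0.300). Fubp1 read 7.68, 7.86 and 7.45 at 1437544_at in knockout cells, against 6.68, 6.30 and 6.42 in wild type cells (1.20; 0.0548, and 0.00590 with the block), while its brightest probe set differed by 0.00. Syncrip (hnRNP Q) was lower at 1 probe set (-0.50) and higher at another (0.42), both past the threshold with the block. Elavl1 (HuR), a stabiliser of AU-rich mRNAs, was lower at all 6 tested probe sets, by 0.14 to 1.15. Elavl1, Sf3b3, Esrp2 and Dhx38 lie on chromosome 8, where the median difference of 1242 tested probe sets was -0.34, against 0.02 elsewhere. All 11 tested probe sets of these 4 genes lay below 0, as did 48.6% of all tested. With the block 5 passed as lower, where 4.39% of all tested did. Neither share was counted for chromosome 8 alone. None of the 34 member genes with a probe set lies on chromosome 8.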

How the data were processed

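The deposited table holds log2 values for 45037 probe sets of 6 arrays. Per the submitters' processing notes they come from MAS5, whose version is not given in the sources used here. The 2% trimmed mean of the linear signal was 497.0 to 497.3 on every array, so values were used with no further normalization or background correction, and no detection calls were used. Depth does not apply to arrays, and their number limits the precision. Gene names come from the annotation of the platform (34945 probe sets with 1 gene, 932 with several, 9160 unnamed here), with 34741 symbols updated by gene identifier against RefSeq GRCm38.p6.

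Probe sets with a mean log2 value below the 40th percentile (5.27) were left out. The tool for all tests was limma 3.58.1, under R 4.3.3 (lmFit, eBayes with intensity trend, two-sided, Benjamini-Hochberg over all tested probe sets, threshold 0.05), and ratios of probe sets in the same way. With 3 arrays against 3, an exact permutation test cannot go below 0.10. Intervals are 95% intervals of the fit. Scripts were tested on simulated data.

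Across probe sets, deviations from the genotype means had r of 0.50, 0.23 and 0.24 for arrays numbered 1, 2 and 3. All were above 0.1, the bound set for fitting a block. Between knockout 3 and wild type 2 r was 0.23, and between knockout 2 and wild type 3 it was 0.17. Deviations from a mean of 3 arrays are tied together, so arrays numbered 1 that stand apart alike raise r among the rest. The bound therefore could not show that numbers 2 and 3 are pairs. Both fits are given, and a call made only with the block is conditional on it.

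Alternatives were the replicate block, no filter, quantile normalization, median centring, no trend, each array left out, and both arrays numbered 1 left out. The members and lists were chosen with earlier results of these data known. All member genes were accounted for. Values on every array were due for member probe sets past the threshold with or without the block, for pairs past it, and otherwise for the 2 brightest members of a role, and up to 4 called genes per other list were to be named, with Setd2. Further values on every array were chosen after they were seen.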

Additional observations from a re-analysis of the deposited data

How the results depend on the processing

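The count of 175 probe sets called over the whole table (74 higher and 101 lower) was 2129 with the replicate block (944 and 1185), 2033 without both arrays numbered 1, 57 without the intensity trend, and between 31 and 431 with single arrays left out (lowest without wild type replicate 3, highest without knockout replicate 1). The count of 0 member probe sets was 3 with the replicate block, 3 without both arrays numbered 1 (Qk, Hnrnpa2b1 and Srsf10), and between 0 and 1 with single arrays left out, the 1 being Qk without knockout replicate 1. It stayed at 0 without the filter, without the trend and under both normalizations. The count of 1 other splicing probe set was 26 with the replicate block, 20 without both arrays numbered 1, 2 under quantile normalization, 3 under median centring, and between 0 and 4 with single arrays left out (0 without knockout replicate 3 or wild type replicate 3). The replicate block changed no call of a member other than Qk, Hnrnpa2b1 and Srsf11. The cause of these moves was not tested. Parting member pairs stayed at 0 under all 12 alternatives. Of 61 member probe sets followed under these alternatives, 65 of 732 values changed sign, none of them past the threshold on either side. The 61 were the brightest of each gene and every tested probe set of Qk, Mbnl2, Mbnl3, Rbfox2, Hnrnpa2b1, Srsf10 and Srsf11. Others with a low unadjusted p were added. They were thus partly picked for their differences, and the share is not one over all members. Without the replicate number as a block, its share of the spread stays in the error, and dim probe sets, with the widest intervals, limit what could be seen for the tissue regulators.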
